A study of Mus musculus with 14 samples.

Results

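Protocadherins are the largest branch of the cadherin family of calcium-dependent adhesion proteins. In this set of cultures they were all genes whose symbol on the array begins with Pcdh, split by name into Pcdha, Pcdhb, Pcdhg and the non-clustered genes called Pcdh plus a number. The array named 71 such symbols, of which 15 were Pcdha, 22 Pcdhb, 22 Pcdhg and 12 non-clustered. A gene value was the median of the probesets that name that gene alone, which gave a value to 54 of the 71 and, over the whole array, to 23152 genes. These 54 were 6 Pcdha, 22 Pcdhb, 14 Pcdhg and 12 non-clustered genes, measured by 216 probesets. The other 17, 9 Pcdha and 8 Pcdhg, were named only jointly. In all, 39 probesets named several symbols with at least 1 Pcdh among them, 22 naming only Pcdhg and 16 only Pcdha, and none of them named a Pcdhb gene. The last of them named Pcdh10 beside another gene.

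The RNA came from cultured neural stem cells, taken from the subventricular zone of mouse pups on postnatal day 4, and was hybridised to 14 Affymetrix arrays. The groups were Cic-/- with EGF (3 arrays), Cic-/- without EGF (3 arrays), Cic+/+ with EGF (4 arrays) and Cic+/+ without EGF (4 arrays). All cultures, Cic+/+ included, had received adenoviral Cre and stood for 24 h in NeuroCult proliferation medium, with or without EGF. The Cic-/- cultures carried a floxed Cic gene, and the submitters reported its loss from a PCR test. Each culture came from 1 animal and gave an array in each medium. The labels call the cultures clones, numbered 5 to 7 for Cic-/- and 1 to 4 for Cic+/+, and do not say whether a culture began from a single cell. Cic encodes capicua, a transcriptional repressor that growth factor signalling through ERK relieves. EGF is a mitogen that keeps such cultures dividing.

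In mammals the clustered protocadherins lie in 3 neighbouring clusters, alpha, beta and gamma, on 1 chromosome. Every alpha and gamma gene has a variable first exon with its own promoter, spliced to exons shared by the whole cluster, whereas a beta gene is a single exon. In neurons a cell uses only some of these promoters, chosen with the help of CTCF, cohesin and DNA methylation, and the proteins bind like with like on neighbouring cells, which lets a neuron tell its own branches from those of others. The non-clustered members are single genes on several chromosomes with roles in cell sorting, axon growth and, for Pcdh15, hearing.

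All arrays had medians between 6.49 and 6.54 on the log2 scale and correlated at 0.930 to 0.973. Cic lay at 7.04 to 7.67 in the Cic-/- arrays, against 9.18 to 9.69 in the Cic+/+ arrays. In the Cic+/+ culture clone 4, Xist was at 4.73 with EGF and at 3.83 in the other medium, and it lay between 11.96 and 12.57 on the remaining 12 arrays, and that clone is among those left out in turn. The 9 neural stem cell markers averaged 10.22 to 10.54 on every array. The array means of microglia, endothelium, fibroblast and pericyte, and ependyma markers lay between 4.74 and 5.82. All values are log2, so a difference of 1 is a doubling, changes are given with their standard error from limma, and the words rose and fell are kept for genes whose adjusted p was below 0.05 over the 17364 genes above a log2 level of 4.40. Of the 54 protocadherins, 51 were above it, and Pcdha4, Pcdha6 and Pcdha8 were not.

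Loss of Cic went with higher Pcdhb2 and Pcdhb3, 2 neighbouring beta genes, in both media. With EGF, Pcdhb2 stood at 9.58, 9.24 and 9.62 in Cic-/- clones 5 to 7, against 7.51, 7.70, 7.44 and 7.14 in Cic+/+ clones 1 to 4. Without EGF it stood at 9.70, 10.45 and 9.94 in the Cic-/- clones, against 7.82, 8.44, 7.96 and 7.58 in the Cic+/+ clones. Every Cic-/- array thus lay above every Cic+/+ array of either medium. The rise was 2.03 ± 0.22, or 4.09-fold, with EGF (limma, adjusted p = 0.00077). Without EGF it was 2.08 ± 0.22, or 4.24-fold (limma, adjusted p = 0.000266).

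Pcdhb3 behaved alike at a lower signal. With EGF it was at 7.68, 7.62 and 7.28 in the Cic-/- clones, against 6.13, 5.91, 6.17 and 5.92 in the Cic+/+ clones. The values without EGF were 7.95, 8.43 and 7.91 in the Cic-/- clones, against 6.44, 6.90, 6.58 and 6.12 in the Cic+/+ clones. The lowest Cic-/- array was above the highest Cic+/+ array in each medium. The rise was 1.495 ± 0.19 with EGF, or 2.82-fold (limma, adjusted p = 0.00337), and 1.59 ± 0.19 without EGF, or 3.01-fold (limma, adjusted p = 0.000876).

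Both genes passed in each medium whichever clone was left out, with adjusted p values up to 0.0129 for Pcdhb2 and up to 0.0241 for Pcdhb3 (limma). With every probeset tested by itself, all 3 probesets of Pcdhb2 and 2 of the 3 of Pcdhb3 passed in each medium, and the third Pcdhb3 probeset missed with adjusted p values of 0.0523 and 0.0533. Over all probesets naming 1 gene, 0.083% passed with EGF and 0.166% without. Beta genes resemble one another in sequence, so a probeset may also read a neighbour's transcript. Pcdhb2 and Pcdhb3 were the only protocadherins to pass between the genotypes, 2 of 51 in each medium, both higher. Over all genes 0.317% passed with EGF, 0.0749% being higher, and 0.553% passed without EGF, 0.127% being higher.

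**Figure D1:**
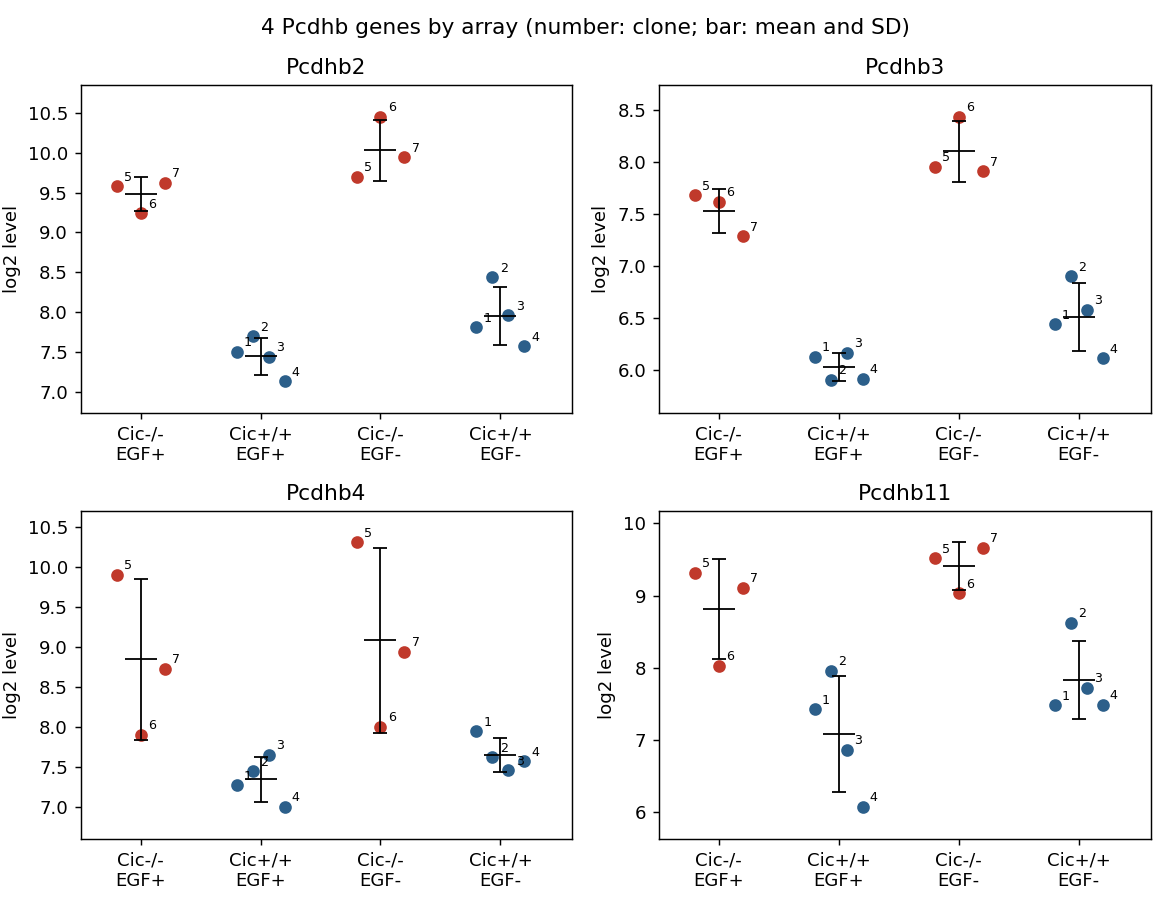
Log2 level of Pcdhb2, Pcdhb3, Pcdhb4 and Pcdhb11 on each of the 14 arrays, by genotype and medium. Points are arrays labelled by clone number, and bars are the mean and SD of a group. In all 4 genes and both media every Cic-/- array lies above every Cic+/+ array, and in Pcdhb4 clone 5 stands highest in each medium.

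The beta genes as a class were higher in Cic-/- cultures on the median. It was 0.68 with EGF and 0.64 without for the 22 genes, against 0.017 and -0.003 for all 17364 genes. Changes were above 0 in 19 of the 22 genes with EGF and in 18 without. At an unadjusted p under 0.05 (limma), 10 of 22 were higher and 0 lower in each medium, against 5.1% and 4.96% of all genes higher. The Cic-/- arrays lay wholly above the Cic+/+ arrays in 7 genes with EGF and in 6 without, and wholly below in none, where 5.81% and 4.2% of all genes lay wholly above. Pcdhb2, Pcdhb3, Pcdhb4 and Pcdhb11 did so in both media, 4 of 22 beta genes, against 1.13% of all genes. That count lay between 4 and 7 when any 1 clone was left out, with 7 without clone 7. Bulk RNA from a culture cannot tell fewer cells that use a gene from less RNA per cell.

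Pcdhb11 stood at 9.32, 8.03 and 9.11 with EGF in Cic-/- clones 5 to 7, against 7.43, 7.96, 6.87 and 6.08 in Cic+/+ clones 1 to 4. Clone 6 and clone 2 were close, and the other clones lay well apart. Its change of 1.74 ± 0.42 did not pass (limma, adjusted p = 0.121). Without EGF it stood at 9.52, 9.03 and 9.66 in the Cic-/- clones, against 7.48, 8.63, 7.73 and 7.49 in the Cic+/+ clones. That change was 1.57 ± 0.42 (limma, adjusted p = 0.139). With the mean of its probesets in place of the median, Pcdhb11 passed with EGF (limma, adjusted p = 0.0411), and with the brightest probeset it passed in both media (limma, adjusted p = 0.0359 and 0.0421).

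Pcdhb4 was at 9.90, 7.90 and 8.72 with EGF in the Cic-/- clones, against 7.27, 7.45, 7.65 and 7.00 in the Cic+/+ clones. Without EGF the levels were 10.30, 7.999 and 8.94 in the Cic-/- clones, against 7.95, 7.62, 7.46 and 7.57 in the Cic+/+ clones. Clone 6 exceeded the highest Cic+/+ array only narrowly, while clone 5 stood far above it. The changes were 1.5 ± 0.47 and 1.43 ± 0.47, and neither passed (limma, adjusted p = 0.237 and 0.243). Without clone 5 they were 0.97 and 0.82.

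Among the other beta genes, Pcdhb6 was closest to the threshold, with a change of 1.32 ± 0.28 with EGF (limma, adjusted p = 0.0691) and of 0.61 ± 0.28 without (limma, adjusted p = 0.453), the second being 0.32 without clone 6. With the mean of its probesets it passed in both media (limma, adjusted p = 0.0229 with EGF and 0.0469 without). With the brightest probeset (limma, adjusted p = 0.0455) and with only the arrays compared in the fit (limma, adjusted p = 0.0311) it passed with EGF. Pcdhb9 differed by 1.58 ± 0.38 with EGF and 1.35 ± 0.38 without, and it passed only with EGF and the brightest probeset (limma, adjusted p = 0.0463). Pcdhb7 differed by 1.34 ± 0.44 and 1.45 ± 0.44, and with EGF clone 6 was at 6.30 while clones 5 and 7 were at 8.68 and 8.27. Without clone 6, Pcdhb7 passed in both media (limma, adjusted p = 0.00194 with EGF and 0.00506 without).

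The genotype difference was not spread evenly over the beta cluster. Ordered by their starts in the RefSeq gene table, the 10 genes from Pcdhb2 to Pcdhb11 had a median change of 1.43 with EGF and 1.39 without, and 8 of the 10 exceeded 1 in each medium. Their changes ran from 0.45 for Pcdhb10 to 2.03 for Pcdhb2 with EGF, and from 0.61 for Pcdhb6 to 2.08 for Pcdhb2 without. The 11 genes from Pcdhb12 to Pcdhb22 had medians of 0.03 and 0.12, and 0 of the 11 exceeded 1 in either medium. Their highest changes were 0.80 for Pcdhb14 with EGF and 0.74 for Pcdhb13 without, their lowest -0.12 for Pcdhb22 and -0.25 for Pcdhb17. Pcdhb1, the first of the cluster, was at 0.14 and 0.19. The border between the 2 stretches was drawn after the values were seen and was not tested.

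**Figure D2:**
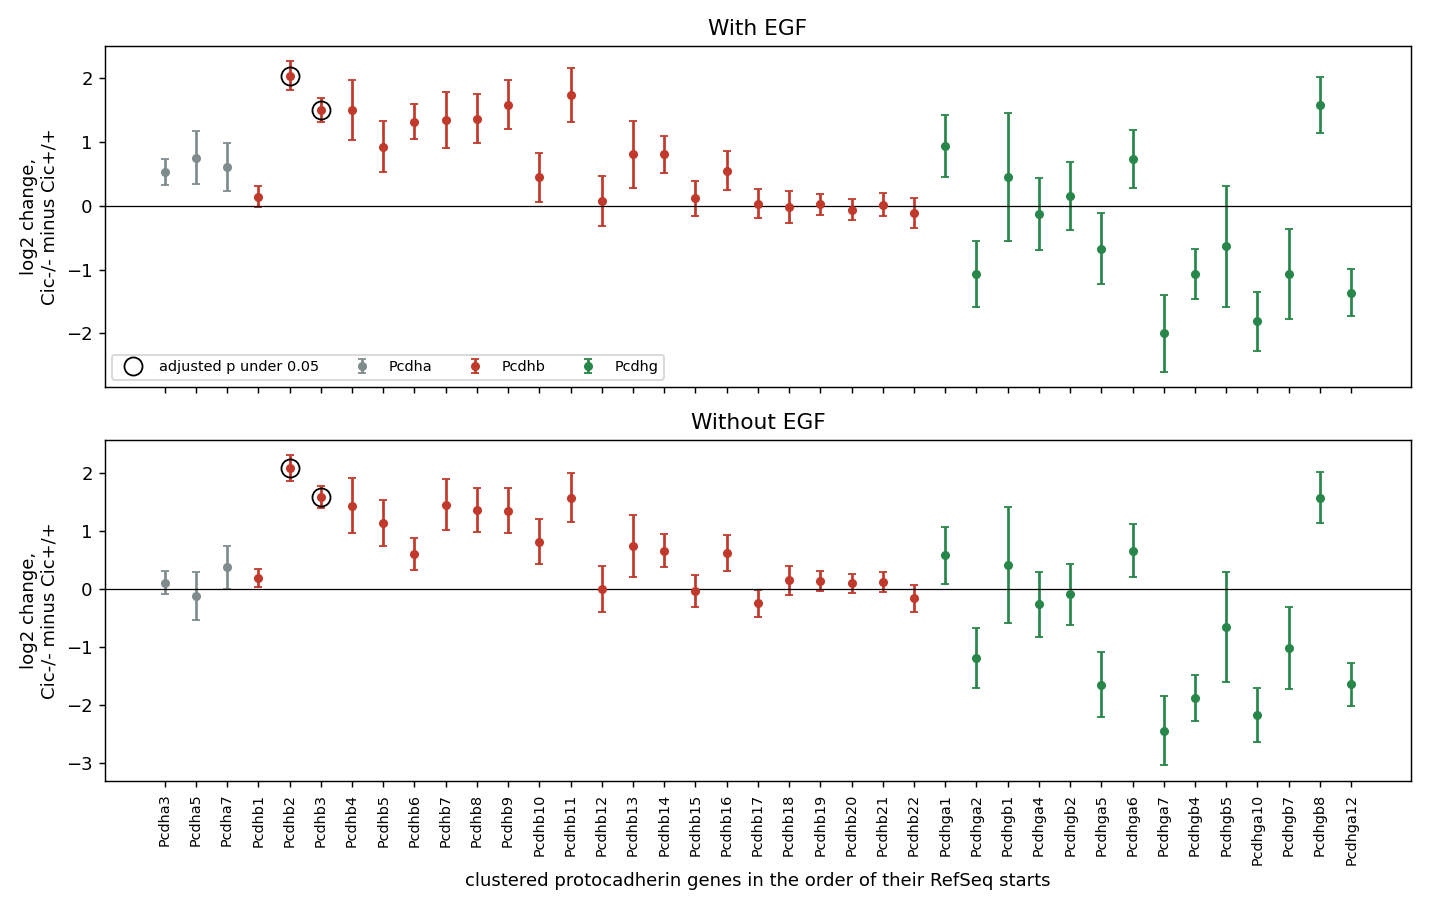
Log2 change between Cic-/- and Cic+/+ cultures with EGF (top) and without EGF (bottom) for the clustered protocadherins above the dim limit, in the order of their RefSeq starts. Points are changes, bars are standard errors from limma, and rings mark an adjusted p under 0.05. The ringed genes are Pcdhb2 and Pcdhb3, Pcdhb2 to Pcdhb11 lie above 0, and most gamma genes with wide bars lie below 0. Pcdhga12 is plotted although its Cic-/- means are below the dim limit.

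Gamma genes leaned the other way without passing one by one. Pcdhga12 passed the dim limit only through its Cic+/+ arrays and is left out of the counts between the genotypes, which leaves 13 gamma genes. Their median change was -0.63 with EGF and -0.66 without, with 8 and 9 of 13 below 0. At an unadjusted p under 0.05 (limma), 3 were lower and 1 higher with EGF, and 5 lower and 1 higher without, against 5.52% and 5.85% of all genes lower. None passed after adjustment. The Cic-/- arrays lay wholly below the Cic+/+ arrays in 3 of 13 genes in each medium, against 5.91% and 5.18% of all genes, and wholly above in 1 gene with EGF. Pcdhga7 and Pcdhga10 lay below in both media, 2 of 13, against 1.55% of all genes. Leaving out a clone gave 2 to 4, with 4 without clone 3, 5 or 6.

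Pcdhga7 had the largest change of these. With EGF it was at 7.42, 8.15 and 6.16 in Cic-/- clones 5 to 7, against 9.06, 8.36, 10.30 and 9.25 in Cic+/+ clones 1 to 4. In the medium without EGF the values were 7.61, 8.08 and 6.11 in the Cic-/- clones, against 9.12, 8.90, 10.83 and 9.97 in the Cic+/+ clones. Clones 6 and 2 came nearest to each other, and clones 7 and 3 were the extremes in both media. The changes were -2.0 ± 0.60 and -2.44 ± 0.60 (limma, adjusted p = 0.212 and 0.0993). With the clone as a random block the second passed (limma, adjusted p = 0.0468). Under that block 4 of 51 protocadherins passed without EGF, against 0.697% of all genes.

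Pcdhga10 was at 5.13, 5.93 and 5.20 with EGF in the Cic-/- clones, against 7.89, 7.48, 6.15 and 7.37 in the Cic+/+ clones. In the EGF-free medium it stood at 5.68, 5.76 and 4.45 in the Cic-/- clones, against 7.44, 8.05, 6.42 and 7.98 in the Cic+/+ clones. Clone 3 was the lowest Cic+/+ culture in both media. The changes were -1.81 ± 0.46 and -2.17 ± 0.46 (limma, adjusted p = 0.136 and 0.0529). The random block brought the second to an adjusted p of 0.0311 (limma). Leaving out clone 3 brought the first to 0.0304 and the second to 0.00733 (limma).

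Pcdhga12 was a dim gene whose Cic-/- means lay below the dim limit. It was at 3.18, 4.19 and 3.69 with EGF in the Cic-/- clones, against 4.37, 5.20, 5.40 and 5.24 in the Cic+/+ clones. Its values without EGF were 3.99, 3.58 and 3.10 in the Cic-/- clones, against 4.71, 5.68, 4.49 and 5.92 in the Cic+/+ clones. Since the Cic-/- levels lie in the range of dim genes, no change is given.

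Pcdhgb4 came near the threshold without EGF. It was then at 6.37, 5.07 and 4.25 in the Cic-/- clones, against 7.76, 7.12, 6.26 and 7.27 in the Cic+/+ clones. Clone 5 lay just above clone 3, so the groups overlapped. The change was -1.88 ± 0.39 (limma, adjusted p = 0.0507), and with EGF it was -1.07 ± 0.39 (limma, adjusted p = 0.339). With only the arrays compared in the fit, the change with EGF passed (limma, adjusted p = 0.0207), and with other genes taken as the mean of their probesets the change without EGF did (limma, adjusted p = 0.0428), although its own single probeset gives the same values under both choices.

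Pcdhgb8, listed in RefSeq as a transcribed pseudogene, went against its neighbours. It was at 7.79, 8.95 and 9.08 with EGF in the Cic-/- clones, against 7.17, 7.40, 6.33 and 7.25 in the Cic+/+ clones. All Cic-/- arrays were higher with EGF, whereas without EGF clone 5 at 7.46 lay below clone 1 at 7.55. The changes were 1.57 ± 0.44 in both media (limma, adjusted p = 0.175 and 0.161). When clone 5 was left out, both passed (limma, adjusted p = 0.0241 with EGF and 0.00698 without).

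The 22 probesets that name several gamma genes gave a further reading that no single gene owns. Their median change was -0.75 with EGF and -0.87 without. Tested over all 269751 probesets, 2 of 22 were lower in each medium, against 0.086% and 0.169% of all probesets called. Both list Pcdhga11 first among 9 symbols that also hold Pcdhga12, Pcdhga9, Pcdhga8, Pcdhga3, Pcdhgb6 and the C-type genes Pcdhgc3, Pcdhgc4 and Pcdhgc5. They were picked after their values were seen. The first, 17349848, was at 4.96, 6.13 and 5.17 with EGF in the Cic-/- clones, against 7.87, 7.71, 8.44 and 8.62 in the Cic+/+ clones. Without EGF it was at 6.09, 5.53 and 5.00 in the Cic-/- clones, against 7.15, 8.39, 8.98 and 8.64 in the Cic+/+ clones.

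The gaps of both probesets were wider than that of any protocadherin measured alone. The second, 17349849, was at 3.98, 5.48 and 4.44 with EGF in the Cic-/- clones and at 4.79, 5.50 and 4.87 without. The lowest of these is under the dim limit of 4.40 used for genes, so the size of its change is less certain. A further probeset with Pcdhga11 first, 17353804, changed by -1.45 and -1.31 and did not pass (limma, adjusted p = 0.192 and 0.209). The changes of 17349848 were -2.74 ± 0.43 and -2.75 ± 0.43 (limma, adjusted p = 0.0373 and 0.0252). Those of 17349849 were -2.92 ± 0.45 and -2.74 ± 0.45 (limma, adjusted p = 0.0296 and 0.0305). They passed in 1 or 2 of the 7 fits that leave out a clone, with adjusted p values up to 0.151 (limma), so the calls do not hold without most of the clones. A pair of probesets with the same symbols but Pcdhgc5 first showed another pattern. At 17349857, clone 5 stood at 3.64 with EGF and 4.37 without, while the other Cic-/- clones lay between 6.23 and 7.46 and the Cic+/+ arrays between 7.19 and 8.11.

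The 16 probesets that name several alpha genes had median changes of -0.04 with EGF and 0.13 without, and 0 passed in either medium. Unadjusted, 0 reached a p under 0.05 with EGF and 2 higher and 1 lower did without (limma). No share of all probesets is given for that threshold, so these counts are not read as a result. Of the 3 alpha genes above the dim limit, Pcdha3 differed by 0.53 ± 0.21 with EGF and by 0.11 ± 0.21 without, Pcdha5 by 0.75 ± 0.41 and -0.12 ± 0.41, and Pcdha7 by 0.61 ± 0.38 and 0.37 ± 0.38. With EGF every Cic-/- array of Pcdha3 lay above every Cic+/+ array, 1 of 3 genes, against 5.81% of all genes. The size of these changes depended on the clones in the fit. With any 1 clone left out, the changes with EGF ran from 0.33 to 0.63 for Pcdha3. They ran from 0.497 to 0.92 for Pcdha5 and from 0.24 to 0.89 for Pcdha7. Without clone 7 the changes with EGF were 0.33 for Pcdha3 and 0.24 for Pcdha7, and that of Pcdha3 without EGF was -0.13. Without clone 5 Pcdha5 stood at 0.497 with EGF and 0.39 in the other medium. Pcdha7 without EGF ran from 0.11 to 0.64 with a clone left out. None passed (limma, adjusted p from 0.371 to 0.957). Single alpha genes were thus measured through few probesets, 7 in all for 6 genes, beside the 16 that name several.

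The non-clustered genes differed little between the genotypes. Their median change was 0.08 with EGF and 0.22 without, and with EGF all 12 changes lay between -0.17 and 0.19. In limma 0 of 12 passed. At an unadjusted p under 0.05 there were 0 with EGF, against 5.1% of all genes higher and 5.52% lower. Without EGF there was 1, a higher one, against 4.96% of all genes higher and 5.85% lower. That gene was Pcdh15, a tip link protein of hair cells that is also found in oligodendrocyte progenitors. Without EGF it was at 9.81, 10.05 and 9.39 in Cic-/- clones 5 to 7, against 8.19, 9.24, 9.06 and 8.64 in Cic+/+ clones 1 to 4. All Cic-/- arrays were higher, as in 4.2% of all genes, and the change was 0.97 ± 0.31 (limma, adjusted p = 0.233). With EGF the groups overlapped, at 9.10, 8.30 and 8.01 in the Cic-/- clones and at 7.996, 8.75, 8.93 and 8.84 in the Cic+/+ clones.

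Many protocadherins were lower with EGF than without it. Without a block, 0 of the 51 passed in either genotype, against 0.19% of all genes in Cic-/- and 0.898% in Cic+/+ cultures. At an unadjusted p under 0.05 (limma), 10 were lower in Cic-/- and 7 in Cic+/+, against 5.03% and 7.23% of all genes. With the clone as a fixed block, which compares the 2 arrays of an animal, 4 fell in Cic-/- cultures and 7 in Cic+/+ cultures. All of them were lower with EGF, where 1.6% and 3.28% of all genes fell. With the clone as a random block only Pcdh15 fell in Cic-/- and only Pcdh10 and Pcdh7 in Cic+/+ cultures (limma, 1 and 2 of 51), against 2.08% and 5.17% of all genes passing. Lower in all 7 clones were 5 of 12 non-clustered genes, 7 of 22 beta genes, 1 of 14 gamma genes and 0 of 6 alpha genes, against 7.43% of all genes.

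In Cic-/- cultures the 4 that fell with EGF under the fixed block were Pcdh11x, Pcdh15, Pcdh17 and Pcdh9. Pcdh11x, an X-linked adhesion gene, was at 9.27, 7.68 and 7.44 with EGF and at 10.45, 10.08 and 8.61 without it in clones 5 to 7. The difference within a clone was -1.19, -2.40 and -1.16, and its mean of -1.58 passed (limma with block, adjusted p = 0.00626), against an adjusted p of 0.421 without the block. In Cic+/+ clones 1 to 4 its differences were -1.004, -0.57, -0.98 and -0.53. Their mean of -0.77 just passed (limma with block, adjusted p = 0.0498), against 0.632 without the block. The sign was the same in all 7 clones.

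Pcdh15 had the largest interaction of the 51, the difference between the EGF effects of the genotypes (Cic-/- minus Cic+/+). The differences were -0.71, -1.75 and -1.38 in Cic-/- clones 5 to 7, against -0.19, -0.49, -0.13 and 0.21 in Cic+/+ clones 1 to 4. The difference of every Cic-/- clone was farther below 0 than that of any Cic+/+ clone. No share of all genes is given for such a gap, so it is not read as a result. The mean of -1.28 in Cic-/- cultures passed with the fixed block (limma, adjusted p = 0.0092) and with the random block (limma, adjusted p = 0.0189), and that of -0.15 in Cic+/+ cultures did not (limma with fixed block, adjusted p = 0.693). The interaction itself, -1.13 ± 0.44, had an unadjusted p of 0.0222 and did not pass (limma, adjusted p = 1.00 without and 0.371 with the fixed block). For the 51 genes together 0 interactions passed, 1 had an unadjusted p under 0.05 against 2.86% of all genes, and 0.00576% of all genes passed (limma). The widest gamma interaction was that of Pcdhga5, 0.97 ± 0.79.

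Pcdh17, which recruits actin regulators to axon contacts, was at 9.26, 8.89 and 8.72 with EGF and at 10.11, 10.10 and 9.25 without it in Cic-/- clones 5 to 7. In Cic+/+ clones 1 to 4 it was at 8.10, 8.58, 9.15 and 9.37 with EGF and at 8.67, 9.75, 9.81 and 10.27 without. Each clone was lower with EGF, with differences from -1.20 to -0.53. The means of -0.86 in Cic-/- and -0.83 in Cic+/+ passed with the block (limma, adjusted p = 0.0244 and 0.00996), against 0.488 and 0.327 without it. Pcdh9, an adhesion protein of developing cortex, differed by -0.21, -1.47 and -1.22 in Cic-/- clones 5 to 7 and by -0.71, -0.99, -0.58 and -0.92 in Cic+/+ clones 1 to 4. Its means of -0.97 and -0.80 passed with the block (limma, adjusted p = 0.0397 and 0.0334), against 0.483 and 0.407 without it. Pcdh9 was lower in every clone, least in clone 5.

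Pcdh17, Pcdh9 and Pcdh11x fell with EGF in both genotypes under the fixed block alone. With the random block the adjusted p values (limma) in Cic-/- and in Cic+/+ cultures were 0.128 and 0.0675 for Pcdh17, 0.135 and 0.121 for Pcdh9, and 0.0935 and 0.305 for Pcdh11x, so none of these calls holds there. The RefSeq promoter table (GRCm38.p6) held Pcdh17 and Pcdh9. Their promoters are shown as examples of non-clustered genes lower with EGF in all 7 clones, with the 50 bases from the start site on in capitals. Pcdh17 lies at chr14:84443313-84443612 on the plus strand and Pcdh9 at chr14:93890620-93890919 on the minus strand.
Pcdh17: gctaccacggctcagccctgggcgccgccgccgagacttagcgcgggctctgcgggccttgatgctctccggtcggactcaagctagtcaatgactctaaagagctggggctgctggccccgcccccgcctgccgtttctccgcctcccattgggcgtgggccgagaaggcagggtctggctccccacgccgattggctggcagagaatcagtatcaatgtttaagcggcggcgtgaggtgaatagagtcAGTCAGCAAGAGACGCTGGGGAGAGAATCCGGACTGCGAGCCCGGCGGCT
Pcdh9: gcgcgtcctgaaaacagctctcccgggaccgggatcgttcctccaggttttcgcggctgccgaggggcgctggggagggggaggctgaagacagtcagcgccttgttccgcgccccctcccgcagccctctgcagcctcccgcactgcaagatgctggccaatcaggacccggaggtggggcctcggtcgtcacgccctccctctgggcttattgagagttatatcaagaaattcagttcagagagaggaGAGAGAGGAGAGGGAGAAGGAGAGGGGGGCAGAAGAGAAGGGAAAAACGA
Promoters were found for 9 of the 54 genes (10 sequences), all non-clustered. Neither TGAATGAA nor TGAATGGA, octamers that capicua is known to bind, occurred on either strand in any of the 10, against 2.47% of the 32851 promoters of the table. The 2 octamers differ at 1 base and do not overlap other motifs searched. Their absence from a window of 300 bases says nothing of capicua elsewhere at these genes. The 10 promoters had a median GC content of 62.3%, against 52.7% over the table.

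In Cic+/+ cultures the 7 that fell with EGF under the fixed block were Pcdh10, Pcdh7, Pcdh17, Pcdh9, Pcdh11x, Pcdhb9 and Pcdhb14. Pcdh10, which links to the WAVE complex of actin control, was at 10.69, 10.89, 10.90 and 11.01 with EGF and at 11.22, 11.58, 11.68 and 11.73 without it in clones 1 to 4. Each of these clones was lower with EGF, with a mean difference of -0.68 (limma with block, adjusted p = 0.0154, and 0.110 without the block). Its difference in Cic-/- clones was -0.23, -0.79 and -0.82 (limma with block, adjusted p = 0.0597). Pcdh7 differed by -0.49, -0.73, -0.47 and -0.65 in the Cic+/+ clones and by -0.18, -0.44 and -0.14 in the Cic-/- clones. Its means were -0.58 in Cic+/+ (limma with block, adjusted p = 0.0173, and 0.068 without) and -0.26 in Cic-/- (limma with block, adjusted p = 0.373).

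The 2 beta genes fell by less than 1 on the log2 scale. Pcdhb9 differed by -0.31, -1.43, -0.94 and -0.38 in Cic+/+ clones 1 to 4, with a mean of -0.77 (limma with block, adjusted p = 0.0322, and 0.398 without). Pcdhb14 had a mean of -0.55 (limma with block, adjusted p = 0.0425, and 0.426 without). Pcdhb2 and Pcdhb3 were also lower with EGF in all 7 clones. Their means were -0.55 and -0.57 in Cic-/- and -0.50 and -0.48 in Cic+/+ cultures, and none passed with the fixed block (limma, adjusted p from 0.103 to 0.178).

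**Figure D3:**
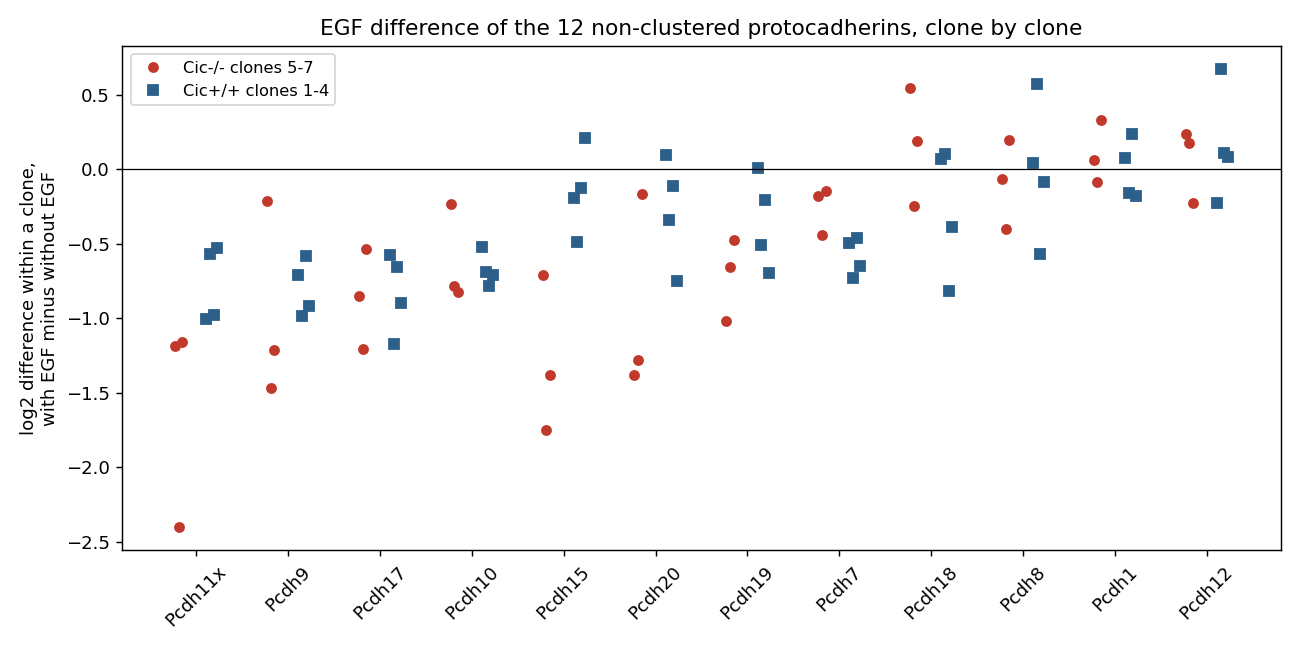
Log2 difference between the 2 arrays of a clone, with EGF minus without EGF, for the 12 non-clustered protocadherins in order of their mean difference. Circles are Cic-/- clones 5 to 7, squares are Cic+/+ clones 1 to 4. Pcdh11x, Pcdh9, Pcdh17, Pcdh10 and Pcdh7 lie below 0 in every clone. Pcdh15 lies lower in the Cic-/- than in the Cic+/+ clones, and its interaction did not pass.

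These calls depend on the clones in the fit. With the fixed block the count was 1 without clone 6 in Cic-/- cultures, where only Pcdh11x fell. In Cic+/+ cultures it was 0 without clone 2 or clone 4 and 1 without clone 3. By class, the median EGF difference of the non-clustered genes was -0.67 in Cic-/- and -0.31 in Cic+/+, that of the beta genes -0.40 and -0.35, and that of the gamma genes -0.08 and -0.29. Differences were below 0 in 20 and 22 of 22 beta genes and in 10 and 14 of 14 gamma genes. The medians of all genes were 0.006 and -0.002.

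The array means of some markers of other cell states also differed between the media. The mean of the 6 oligodendrocyte progenitor markers was 8.82 to 9.25 with EGF and 9.69 to 10.48 without it on Cic-/- arrays, and 9.73 to 10.25 with EGF and 10.33 to 10.67 without it on Cic+/+ arrays. By marker, the EGF difference was below 0 in 6 of 6 in Cic-/- and in 3 of 6 in Cic+/+ cultures. The Cic+/+ median was 0.01 and the lowest marker stood at -2.71. The mean of the 6 astrocyte markers was 9.09 to 9.26 with EGF and 9.57 to 10.06 without it on Cic-/- arrays, and 9.01 to 9.77 with EGF and 10.16 to 10.65 without it on Cic+/+ arrays. The 7 myelin markers stood at 5.86 to 6.15 in Cic-/- and 7.72 to 8.17 in Cic+/+ arrays without EGF, and at 5.71 to 6.15 and 6.16 to 6.40 with EGF. The 8 neuroblast and neuron markers averaged 7.52 to 7.68 with EGF and 7.89 to 8.08 without it on Cic-/- arrays, and 7.37 to 7.82 with EGF and 7.51 to 7.83 without it on Cic+/+ arrays. By marker, 4 of the 8 were lower and 4 higher with EGF in each genotype. The medians were -0.01 in Cic-/- and 0.03 in Cic+/+ cultures, and the lowest markers stood at -2.74 and -1.22. Without EGF, 5 of the 7 myelin markers were lower and 1 of the 8 neuroblast markers higher in Cic-/- cultures (limma, adjusted over all genes). Of all genes 0.553% passed there, 0.127% being higher. Among the 7 myelin markers, 1 had a mean under the dim limit in Cic-/- cultures without EGF and 0 in Cic+/+ cultures without EGF. The count keeps all 7. The part of these cell states in the protocadherin values was not tested.

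Gamma genes differed strongly from one culture to the next within a genotype. The SD between clones, taken over the mean of a clone's 2 arrays, had a median of 0.76 for the 14 gamma genes, 0.39 for the 22 beta genes and 0.31 for the 12 non-clustered genes, against 0.20 for all genes. It exceeded 1 in Pcdhgb1, Pcdhgb5 and Pcdhgb7, 3 of 14, against 0.461% of all genes. The classes differ in how many probesets make a gene value, and 13 of the 14 gamma genes rest on 1 probeset. The median number was 1 for gamma, 3 for beta and 6.5 for non-clustered genes, against 8 for all genes. A median over more probesets can damp the spread, and the part of this in the ranking was not tested. The deviations of the 7 clones from their genotype mean correlated between the media with a median r of 0.91 for gamma genes, against 0.76 for beta genes and 0.39 for all genes. The 2 media of a clone share its animal and culture, so this describes how alike a clone was in the 2 media.

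Pcdhgb5 was at 9.18 with EGF and 10.08 without it in Cic-/- clone 6, while clones 5 and 7 were at 6.31 and 5.90 with EGF and at 6.05 and 5.68 without. The Cic+/+ clones were at 7.84, 7.54, 7.16 and 8.53 with EGF and at 7.76, 7.42, 7.39 and 9.13 without. Clone 6 was thus the highest and clones 5 and 7 the lowest of the 7 in both media. Pcdhgb1 was at 9.27, 11.00 and 11.82 in Cic-/- clones with EGF, against 10.80, 11.99, 8.04 and 10.17 in Cic+/+ clones. Its lowest culture was clone 3, at 8.04 and 8.33, and next came clone 5, at 9.27 and 9.22. Pcdhgb7 ordered the Cic-/- clones differently again, with clone 7 between clone 5 at 10.37 and 10.18 and clone 6 at 7.14 and 7.50 with and without EGF.

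**Figure D4:**
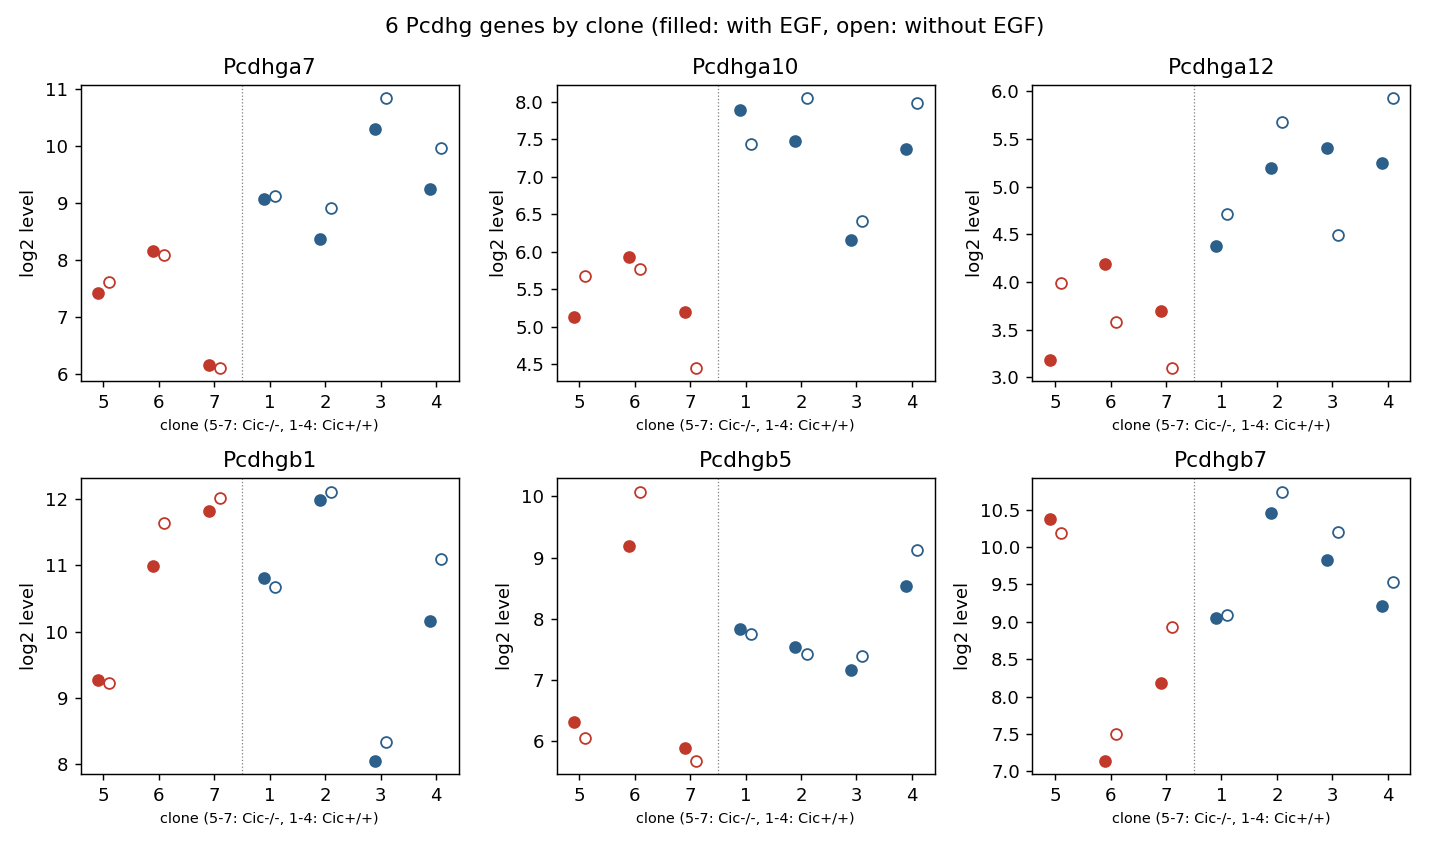
Log2 level of 6 gamma genes in Cic-/- clones 5 to 7 (left of the dotted line) and Cic+/+ clones 1 to 4 (right), with EGF (filled) and without EGF (open). The top row holds Pcdhga7 and Pcdhga10, lower in Cic-/- arrays of both media, and Pcdhga12, whose Cic-/- means lie below the dim limit. The bottom row holds the 3 genes with an SD between clones over 1. In the bottom row the 2 media of a clone lie less than 1 apart, while clones lie up to about 4 apart.

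Over all 14 gamma genes, the deviations of a clone with EGF correlated with those of the same clone without EGF at r from 0.57 to 0.94. For each of the 7 clones that r was above the highest with another clone of its genotype, narrowly in clone 1, at 0.57 against 0.53. Deviations from a group mean sum to 0, so a high r within a clone goes with lower ones to the others by construction. For the 22 beta genes the r within a clone was 0.65 to 0.85 in 6 clones and 0.20 in clone 1, where another Cic+/+ clone reached 0.34. The points are genes measured on the same arrays, so these values describe likeness between arrays and carry no test.

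**Figure D5:**
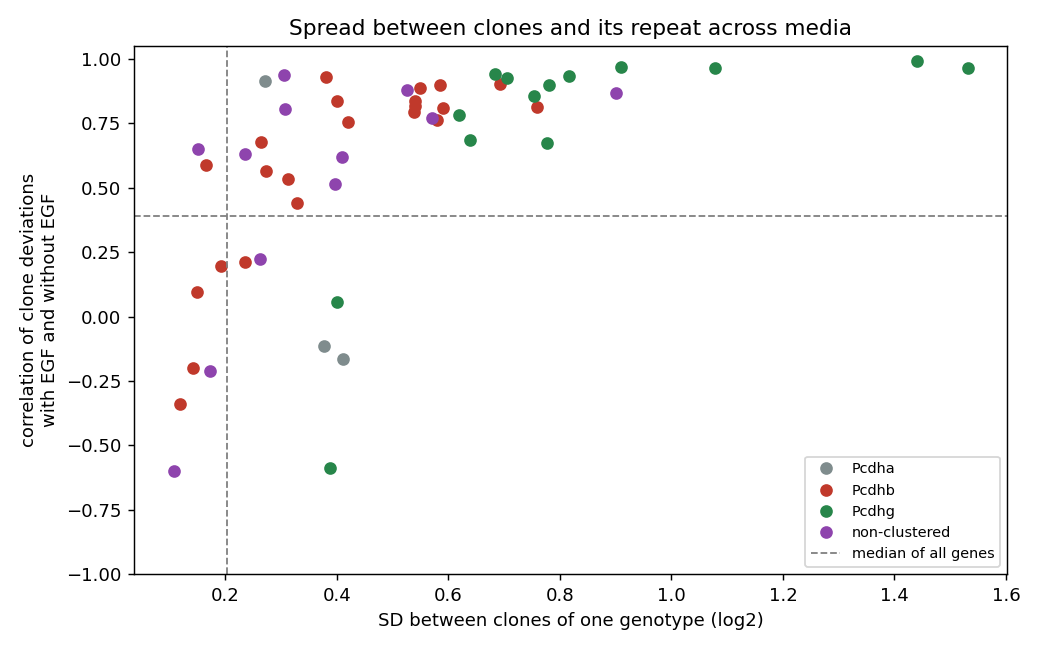
SD between clones of one genotype (horizontal, log2) against the correlation of clone deviations with EGF and without EGF (vertical) for the 51 protocadherins above the dim limit, coloured by class. Dashed lines are the medians of all 17364 genes, 0.20 and 0.39. Gamma genes lie farthest to the right, and a correlation above 0.8 was found in 9 of 14 gamma, 9 of 22 beta, 4 of 12 non-clustered and 1 of 3 alpha genes, against 14% of all genes.

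Genes known to act on or with protocadherins gave little between the genotypes. Of 14 regulators of clustered protocadherin expression, among them Ctcf and Smc3, 0 passed in any comparison (limma). Ctcf, which anchors the loops at these promoters, differed by -0.29 ± 0.13 with EGF (limma, adjusted p = 0.451). Smc3, a cohesin subunit, differed by 0.32 ± 0.14 without EGF (limma, adjusted p = 0.431). Each was the only 1 of 14 at an unadjusted p under 0.05 in that comparison (limma). Over all genes 5.52% were lower with EGF and 4.96% higher without at that threshold. Of 12 partners and processing enzymes, 0 passed between the genotypes. Cyfip2 and Wasf1, subunits of the WAVE complex, fell with EGF in Cic+/+ cultures by 1.38 ± 0.26 and 0.68 ± 0.15 on the log2 scale (limma, adjusted p = 0.0234 and 0.0449). They were 2 of 12, against 0.898% of all genes passing.

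Other cadherin superfamily genes did not pass between the genotypes either. Among 30 tested, 0 passed in any comparison without a block. With the clone as a fixed block 1 fell with EGF in Cic+/+ cultures, against 3.28% of all genes (limma). As a random block 1 rose with EGF in Cic-/- cultures, against 2.08% of all genes passing (limma). At an unadjusted p under 0.05 (limma) 5 were higher and 2 lower with EGF between the genotypes, against 5.1% and 5.52% of all genes. Without EGF 1 was higher and 3 lower, against 4.96% and 5.85% of all genes. Celsr1, a planar polarity cadherin, had the largest of these changes, 1.36 ± 0.35 with EGF (adjusted p = 0.139). Their median changes of 0.12 and -0.01 compare with 0.68 and 0.64 for the beta genes. Of the genes beside and between the 3 clusters, 20 were tested, Pcdh1 and Pcdh12 among them, with medians of 0.02 and 0.05, and 0 passed between the genotypes. At an unadjusted p under 0.05 these held 1 higher and 1 lower with EGF and 1 lower without (limma). The shares of all genes are those given above for the cadherins. Taf7, a general transcription factor subunit between the beta and gamma clusters, fell with EGF in Cic+/+ cultures by 0.62 ± 0.13 on the log2 scale (limma, adjusted p = 0.0431). It was 1 of 20, against 0.898% of all genes passing.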

How the data were processed

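The deposited table held log2 probeset values made by the authors with RMA, per the submitters' processing notes. No RMA version and no genome build of the array is given in the sources used here. Replicates were cultures of individual animals. Gene symbols came from GEO's platform annotation, which is old, and RefSeq (GRCm38.p6) served for gene order, biotypes and promoters. Of 269751 probesets, 233753 named 1 gene. The lowest 25% of 23152 genes by mean level were left out as dim. The remaining 17364 were fitted with limma 3.58.1 (R 4.3.3, data.table in version 1.17.8) as 4 group means over 14 arrays with 10 residual degrees of freedom, and p values were adjusted by Benjamini-Hochberg over all genes. Figures used Python 3.11.15, pandas 2.3.3 and matplotlib 3.10.9.

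The clone number pairs the arrays of an animal. Deviations correlated within clones 1 to 7 at 0.474, 0.323, 0.459, 0.337, 0.584, 0.156 and 0.616, each above any other clone. In clone 6 the highest other was close, at 0.150. Since deviations from a group mean sum to 0, part of this contrast is built in.

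Members named one by one are those that passed and, per class and comparison, the 2 largest changes. Others named were chosen after their values were seen, as were Pcdhb6, Pcdhb7, Pcdhb9, Pcdhgb1, Pcdhgb4, Pcdhgb5, Pcdhgb7 and Pcdhgb8 where they fall outside that rule. Members and lists were chosen with earlier results of these data known. Alternatives were the gene summary, dim filter, prior, scaling, clone block, arrays fitted, single probesets and leaving out clones. The fit was tested on simulated data.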

Additional observations from a re-analysis of the deposited data

Results flagged for a closer look

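In 1 of the 42 groups of 4 arrays looked at for the 21 protocadherins named by rule, a single array lay far from the rest. Pcdh9 in Cic+/+ cultures without EGF was at 9.26 in clone 1, while the other 3 arrays lay between 10.10 and 10.25. The gap was 0.846 of the range of the group. Chance marks about 1 in 20 such groups.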

How the results depend on the processing

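Pcdhb2 and Pcdhb3 passed between the genotypes in both media under every alternative tried at the gene level. The count of protocadherins passing between the genotypes with EGF was 2, but 4 with the mean over probesets, 5 with the brightest probeset and 4 with only the arrays compared, and it ranged from 2 to 3 with a clone left out. Without EGF it was 2, but 4 with the mean over probesets, 4 with a trended robust prior, 4 with the clone as a random block and from 2 to 4 with a clone left out, with 4 without clone 3, 5 or 6. For the EGF effect the block by clone, which pairs the arrays of an animal, raised the count in Cic-/- from 0 to 1 as a random and 4 as a fixed block. In Cic+/+ it raised the count from 0 to 2 and 7, and the mean over probesets and the dim filter at 50% each gave 1. No interaction passed in any fit, and with a clone left out no EGF effect passed without the block. The random block also let Pcdhga7 and Pcdhga10 pass without EGF, and the block changed no other call among the protocadherins.

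Of the single genes named, the genotype change of Pcdh9 with EGF, 0.19, turned to -0.11 with the brightest probeset and ran from -0.30 to 0.64 with a clone left out, with -0.01 without clone 1 and -0.30 without clone 5. The EGF effect of Pcdhgb4 in Cic-/-, 0.40, was -0.15 without clone 7 and 1.03 without clone 5. The causes were not tested. Centring or quantile normalization turned the sign of no class median. The number of arrays, 3 or 4 a group, limits the precision, and dim genes such as Pcdhga12 and the alpha genes are the least certain. Cross-hybridisation among paralogs could not be measured.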
